A study of Mus musculus with 3 samples.

Results

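The cells described here are activated monocytes from mouse melanoma grafts, picked out by counts of Acod1, Slfn4 and Cxcl11. A cell was taken when Acod1, Slfn4 and Cxcl11 together had at least 5 counts and Csf1r, Fcgr1 and Cd14 together at least 1. It also had to hold fewer than 10 counts of C1qa, C1qb and C1qc, at most 3 of F13a1, Vcan and Hp, and at most 2 of Ear2, Ace and Adgre4. The T-cell genes Cd3d, Cd3e and Cd3g, and the NK genes Ncr1 and Klrb1c, were each limited to a sum of 1. These limits found 642 of 43730 deposited cells, 451 in the library from mice aged 4 months, 78 at 12 months and 113 at 20 months. The measured counts themselves chose the cells, so the levels of the rule's genes, and of genes compared with other cells, are given as a description.

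Classical monocytes leave the blood, enter tumours and become macrophages or other short-lived effector cells. Interferons and microbial or damage signals switch on a shared program in them, in which Acod1 encodes the enzyme that makes itaconate, Slfn4 is a myeloid member of the interferon-induced Schlafen family, and Cxcl11 belongs with Cxcl9 and Cxcl10 to the ligands of CXCR3, a receptor on activated T and NK cells. The same cells can make Il1rn, the secreted antagonist of interleukin-1, together with Arg1 and Tgm2, enzymes that are also used as marks of tissue-repairing or suppressive macrophages.

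Mice aged 4, 12 or 20 months, 7 of each age, were injected under the skin with 500000 cells of YUMM1.7, a mouse melanoma line that can be grafted. Tumours were taken 18 days later, and live cells carrying CD45, a surface protein of leukocytes, were sorted and sequenced with PIP-seq, a droplet method that barcodes the 3′ ends of transcripts of single cells. All mice carried the same graft, and no treatment is named in the labels. Each age was sequenced as 1 library, without a statement in the labels of how its 7 mice were combined, so age and library cannot be told apart. No comparison between ages has a replicate check, every interval below covers counting error only, and no p-value is given. An activated monocyte held a median of 6311, 6497 and 6112 counts at 4, 12 and 20 months, and their summed counts were 2941055, 524632 and 717738. The 4-month level of a gene is therefore the most precise of the 3. Levels are counts per 1000000 counts of these cells (CPM), with an exact Poisson interval at 95%. Between 2 and 4 barcodes were shared by any pair of libraries, and 0 of them belonged to an activated monocyte.

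Markers of monocytes were high in these cells, although the gates fix part of the contrast with T cells. Summed over 11 genes shared by monocytes and macrophages, levels were 16356, 16091 and 16900 CPM at 4, 12 and 20 months, against 2154, 1953 and 1725 CPM in T cells of the same libraries. Csf1r, Fcgr1 and Cd14 are among these genes, and the rule requires a count of them, while the T cells were chosen to have none. Ly6c2 stood at 6959 CPM at 4 months, 6698 at 12 months and 5333 at 20 months, and Plac8 at 8380, 6942 and 8663 CPM. Ly6c2 is not a monocyte gene alone in these tumours, since T cells held 4728 CPM of it, whereas the monocyte lysozyme Lyz2 was at 7662 CPM in activated monocytes and 609 CPM in T cells. Ccr2, the chemokine receptor that brings monocytes out of the bone marrow, was at 831 CPM against 355 CPM in T cells. The neutrophil gene S100a8 was at 7.14, 28.6 and 23.7 CPM in the 3 libraries, against 7.00, 20.2 and 23.8 CPM in T cells. S100a9 was at 2.72, 22.9 and 12.5 CPM against 5.25, 15.3 and 17.1 CPM, so both were low and near the T-cell level of the same library. C1qa, the complement gene of macrophages, was at 172, 238 and 280 CPM in the 3 libraries, against 154, 190 and 268 CPM in T cells, so that it was higher at each later age in both, T cells being cells that should lack it. The rule's own limit on C1q counts keeps this level low in activated monocytes. Summed markers of melanoma cells came to 47.6, 68.6 and 58.5 CPM, nearly all of it Mitf, which myeloid cells also express, and those of stroma and endothelium to 49.6, 57.2 and 71.1 CPM.

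Promoters of 6 of the genes that the results turn on are printed here, because many interferon-induced genes carry a short repeated element near their start. The element searched was the core of the interferon-stimulated response element, GAAA and GAAA with any 2 bases between them, on both strands, in windows of 300 bases from RefSeq on GRCm38.p6, which run from 250 bases before the start to 50 after it. Matches are in capitals, overlapping ones run together, and all other bases are in lower case.
Isg15, chr4:156200769-156201068, minus strand: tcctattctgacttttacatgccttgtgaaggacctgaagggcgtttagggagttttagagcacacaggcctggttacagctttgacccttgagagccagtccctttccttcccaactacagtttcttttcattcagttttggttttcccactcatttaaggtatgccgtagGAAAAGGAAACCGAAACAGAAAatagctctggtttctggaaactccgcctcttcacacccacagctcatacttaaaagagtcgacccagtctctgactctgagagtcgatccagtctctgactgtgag
Ifit1bl1, chr19:34601919-34602218, minus strand: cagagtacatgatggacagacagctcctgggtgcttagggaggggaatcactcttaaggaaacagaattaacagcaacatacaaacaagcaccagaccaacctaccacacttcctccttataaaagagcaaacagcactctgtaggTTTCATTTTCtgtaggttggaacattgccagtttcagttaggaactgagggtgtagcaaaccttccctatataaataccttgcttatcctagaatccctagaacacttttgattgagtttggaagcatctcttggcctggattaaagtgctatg
Gbp2, chr3:142620413-142620712, plus strand: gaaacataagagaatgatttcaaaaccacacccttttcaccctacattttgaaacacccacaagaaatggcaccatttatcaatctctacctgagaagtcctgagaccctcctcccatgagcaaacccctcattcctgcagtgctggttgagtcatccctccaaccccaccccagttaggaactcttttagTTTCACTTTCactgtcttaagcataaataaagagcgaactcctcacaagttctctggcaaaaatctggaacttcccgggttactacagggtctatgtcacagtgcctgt
Cxcl10, chr5:92348840-92349139, minus strand: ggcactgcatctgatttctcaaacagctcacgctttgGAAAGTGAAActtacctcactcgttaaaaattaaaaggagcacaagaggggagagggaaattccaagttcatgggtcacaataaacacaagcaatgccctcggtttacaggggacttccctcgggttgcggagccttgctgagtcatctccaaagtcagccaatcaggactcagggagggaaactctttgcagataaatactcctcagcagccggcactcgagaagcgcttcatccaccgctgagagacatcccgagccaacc
Slfn4, chr11:83174936-83175235, plus strand: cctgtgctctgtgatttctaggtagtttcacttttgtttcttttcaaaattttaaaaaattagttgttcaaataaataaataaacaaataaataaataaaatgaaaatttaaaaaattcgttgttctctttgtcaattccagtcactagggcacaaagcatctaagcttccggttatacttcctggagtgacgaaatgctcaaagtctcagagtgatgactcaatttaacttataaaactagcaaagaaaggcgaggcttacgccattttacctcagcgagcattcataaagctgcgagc
Acod1, chr14:103046762-103047061, plus strand: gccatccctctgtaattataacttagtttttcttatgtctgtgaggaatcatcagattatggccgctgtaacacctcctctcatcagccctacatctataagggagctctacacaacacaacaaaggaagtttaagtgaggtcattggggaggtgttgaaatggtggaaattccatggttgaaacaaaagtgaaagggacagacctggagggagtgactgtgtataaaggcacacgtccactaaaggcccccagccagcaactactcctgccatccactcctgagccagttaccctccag
Isg15 held 3 overlapping matches, of which the most distant began 78 bases before the start. Ifit1bl1 held 1 match, beginning 104 bases before the start shown, Gbp2 held 1 at 59 bases and Cxcl10 held 1 at 213 bases. Slfn4 and Acod1 held 0, which says only that these letters are not in those windows. Isg20, Irf7, Ifit2 and Cxcl9, which are not printed, also held 0 in every window. Of all 32851 promoters in the table, 3.44% held the element. Counted by gene over any of its promoters, as the shares that follow are, it was 3.99% of 27025 genes. Among the 2679 genes with a promoter and 50 CPM or more in activated monocytes of at least 1 library, it was 6.87%. Among the type I interferon list, 13 of the 22 genes with a promoter in the table (59.1%) held it, and among the interferon-gamma GTPase list 11 of 14 (78.6%). Of the 20 genes that stood highest in activated monocytes, described below, 15 had a promoter and 5 of those (33.3%) held the element: Isg15, Ifit1bl1, Gbp2, Apol9b and Ddx60. Of the 10 that stood lowest, 8 had a promoter and 1 (12.5%) held it. Among the chemokine list it was 1 of 9 (11.1%).

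Slfn4 carried most of the selection. It lies at chr11:83175186-83190216 on GRCm38, with no gene annotated over it, and was present in 629 of 642 cells (98.0%), where it made up 71.5% of the summed counts of the 3 genes. Acod1, at chr14:103046977-103056573, was present in 41.6% of the cells and Cxcl11 in 45.5%. In T cells, taken as cells with at least 3 counts of the Cd3 genes and 0 of Csf1r, Fcgr1 and Cd14, the median was 5715 counts against 6267.5 in activated monocytes. The shares of T cells with a count were 23.1% for Slfn4, 4.84% for Acod1 and 4.91% for Cxcl11. GENCODE M21 annotates Cxcl11, at chr5:92359544-92365485, as a polymorphic pseudogene, so that its counts read as transcript and not as chemokine protein. Art3 and Gm2673 overlap it on the other strand, and Art3 also overlaps Cxcl10. Where they overlap, reads of these genes cannot be told apart unless the counting used strand. All 3 genes were found together in 23.5% of the cells, and 38.0% held Slfn4 with neither of the others. Slfn4 held 72.2%, 71.7% and 68.3% of the 3-gene counts at 4, 12 and 20 months, with a median sum of 9, 7 and 8 counts. All 3 genes were found in 24.2%, 16.7% and 25.7% of the cells, and Slfn4 alone in 36.6%, 46.2% and 38.1%.

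The minimum of 5 counts cut through a continuous range rather than a gap. The 99 cells with a sum of exactly 4 and the 92 cells with exactly 5 held 2468 and 2422 CPM of Isg15, 1535 and 1653 CPM of Cxcl10, 198 and 200 CPM of Il1rn and 4504 and 4437 CPM of H2-Aa. Cells just outside the limit were thus close to those just inside it in interferon-induced and MHC class II genes. Chil3 stood at 379 CPM outside and 496 CPM inside, and Arg1 at 30.1 and 83.6 CPM.

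The limits on T and NK genes removed most cells that met every other limit, and removed unequal shares of them. Of 1143, 531 and 474 such cells at 4, 12 and 20 months, 60.5%, 85.3% and 76.2% were removed. Cells with 2 or 3 counts of Cd3d, Cd3e and Cd3g held 128 CPM of Trac and 168 CPM of Trbc2, the T-cell receptor constant genes, against 110 and 163 CPM in cells with 0 or 1. Only the 176 cells with 7 or more stood apart, at 523 and 600 CPM. The median T-gene count before the limit was 2, 4 and 3, and C1q-bearing myeloid cells of the same libraries moved with it, at 2, 5 and 4. Shares by age are therefore given for the rule and for the wider set without the T and NK limits, an alternative chosen after seeing the data, and levels by age where the wider set changed the reading.

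Activated monocytes made up a larger share of the sorted cells at 4 months than at 12 or 20 months. They were 3.13% of all deposited cells in the 4-month library, with an exact Clopper-Pearson interval of 2.85% to 3.43%. The 12-month library held 0.532% (0.421% to 0.664%) and the 20-month library 0.770% (0.635% to 0.924%). The difference from 4 months was -2.60 percentage points at 12 months (Newcombe interval -2.92 to -2.30) and -2.36 points at 20 months (-2.69 to -2.05). In the wider set the shares were 7.94%, 3.62% and 3.23%, so that 4 months remained highest but the order of 12 and 20 months turned. Among cells that passed a myeloid gate with the same T and NK limits, the shares were 19.7% of 2286, 12.9% of 606 and 9.14% of 1236. Other monocytes, gated as described below, were also most frequent at 4 months. F13a1 Vcan Hp monocytes numbered 234, 57 and 112 cells, and nonclassical monocytes 73, 14 and 17. C1q macrophages numbered 459, 173 and 480 cells. The libraries held 14393, 14653 and 14684 deposited cells. Whether mice of 1 age differed among themselves cannot be read from these libraries.

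**Figure D1:**
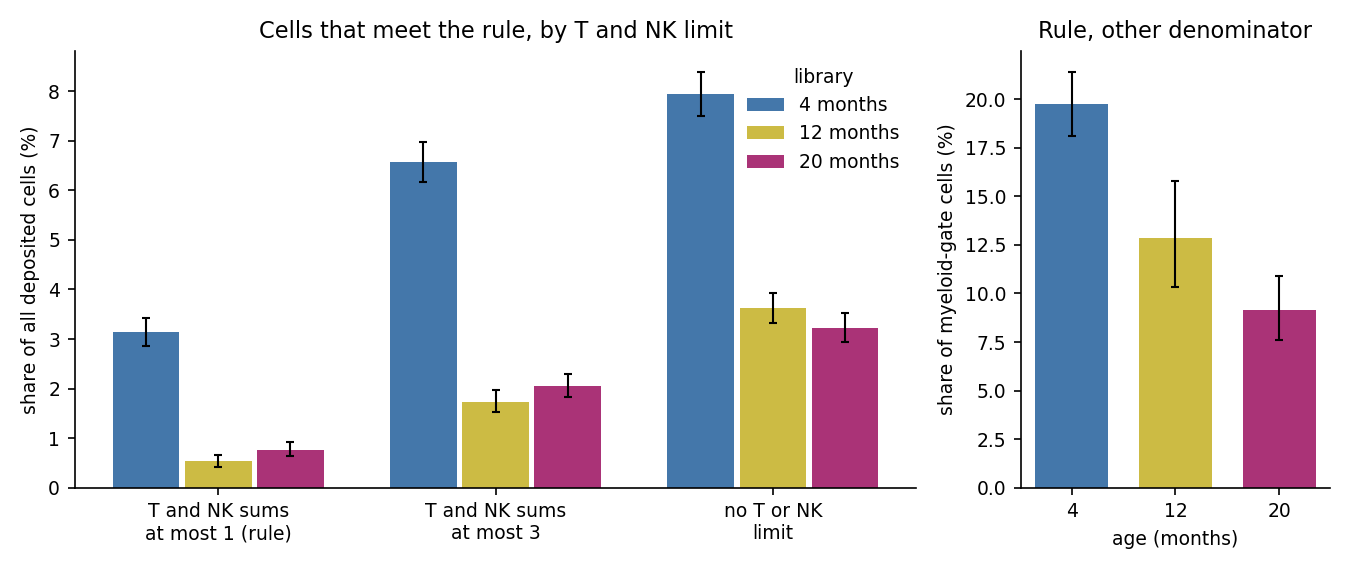
Share of cells that met the rule, in percent on the y axis, by library and by the limit placed on T and NK genes, with the share among cells passing the myeloid gate at the right. Bars are shares and error bars 95% exact binomial intervals. The 4-month bar is the tallest in each set, from 3.13% under the rule to 7.94% with no T or NK limit, and the 12-month and 20-month bars change order.

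Against other myeloid cells of the same tumours, activated monocytes had higher levels of many interferon-induced genes and of single enzymes and receptors such as Arg1, Ass1 and Gpr84. The comparison cells had the same limits on T and NK genes and were 403 F13a1 Vcan Hp monocytes, with at least 5 counts of those genes, and 1112 C1q macrophages, with at least 10 counts of the C1q genes. Both had a sum of Acod1, Slfn4 and Cxcl11 of at most 4. Among the 3180 genes at 50 CPM or more in activated monocytes, 29 (0.912%) were at least 2-fold higher than in both. Against the F13a1 monocytes 153 genes (4.3% of 3556) were 2-fold higher and 133 (3.74%) lower, and against the C1q macrophages 230 (6.56% of 3508) were higher and 71 (2.02%) lower. Because cells were gated on single genes, these folds are a description and have no test.

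Of the 7 markers given for these cells, all 7 were at least 2-fold above the C1q macrophages and 4 above the F13a1 monocytes. Of all genes compared, 6.56% and 4.3% were. Acod1, Slfn4 and Cxcl11 are among the 7 and the 4, and the limits on their sum in each population fix their folds in part. Outside these genes, Il1rn alone was 2-fold above the F13a1 monocytes. The 3 rule genes stood at 1142 CPM for Slfn4, 199 CPM for Acod1 and 257 CPM for Cxcl11, against 171, 18.5 and 10.5 CPM in F13a1 monocytes and 151, 18.3 and 31.6 CPM in C1q macrophages. Il1rn was at 330 CPM against 148 and 82.3 CPM. Tgm2, a protein-crosslinking transglutaminase, was at 727 CPM against 443 and 180 CPM. The secreted proteins Chil3, a chitinase-like protein of monocytes, and Slpi, a protease inhibitor, went the other way against F13a1 monocytes, at 548 against 1227 CPM and 196 against 288 CPM. Both were above the 112 and 23.8 CPM of C1q macrophages. Nonclassical monocytes, 104 cells with at least 3 counts of Ear2, Ace and Adgre4, held 434 CPM of Chil3 and 37.1 CPM of Slpi, so that Slpi was lower there than in activated monocytes. They were near activated monocytes in Tgm2, at 620 CPM.

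Enzymes and receptors came high among the genes that the rule did not name. Arg1, which splits arginine to ornithine, stood highest by fold over both at 58.3 CPM against 9.06 and 13.5 CPM, although only 11.7% of the cells held a count of it (1.56% of T cells). Ass1, which rebuilds arginine from citrulline, was at 389 CPM against 127 and 169 CPM and lay between 387 and 396 CPM in all 3 libraries. Nos2, the inducible nitric oxide synthase, was at 1.67 CPM, or 7 counts in all. AA467197, a gene for a small mitochondrial protein, was at 879 CPM against 226 and 238 CPM. The microRNA gene Mir147, at 56.4 CPM against 14.1 and 15.4 CPM, lies inside AA467197 on the same strand (chr2:122640803-122640881 within chr2:122636986-122641191), and counts of the 2 genes cannot be told apart. Gpr84, a receptor for medium-chain fatty acids, was at 54.3 CPM against 12.0 and 18.9 CPM, with 37.1 CPM in nonclassical monocytes. Upp1, uridine phosphorylase, was at 66.7 CPM against 24.6 and 10.8 CPM. Its difference from F13a1 monocytes lay in the 4-month library, with a log2 ratio of 2.25 there, -0.04 at 12 months and 0.28 at 20 months. Coq2, of ubiquinone synthesis, Endod1, Slco3a1, Mettl8, Nmral1 and the necroptosis effector Mlkl completed the group.

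Interferon-induced genes made up the other leading genes. Isg15, a ubiquitin-like modifier, was at 3221 CPM against 1301 and 1215 CPM, and Isg20, an RNA exonuclease, at 1184 CPM against 446 and 336 CPM. Ifit1bl1 was at 682 CPM against 175 and 197 CPM, Gbp2 at 464 CPM against 163 and 158 CPM, and Ddx60 and Apol9b followed. Gm13822, annotated antisense to Oasl1, was also among them at 121 CPM, and its reads cannot be told apart from those of Oasl1 unless the counting used strand. Of the 30 genes of the type I interferon list, 8 were 2-fold above F13a1 monocytes and 21 above C1q macrophages, with list medians of 0.69 and 1.13 on the log2 scale. Those medians compare with -0.06 and -0.01 over all genes compared, of which 4.3% and 6.56% were 2-fold higher in activated monocytes. The 20 leading genes were picked from sums of these same libraries. Taken library by library, 8 of the 20 were at least 2-fold above both populations in all 3: Arg1, AA467197, Mir147, Ifit1bl1, Gbp2, Gpr84, Isg20 and Isg15. Coq2 at 12 months and Endod1 at 20 months stood at log2 ratios of only 0.02 and 0.03 over F13a1 monocytes.

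Chemokines split the comparison. Cxcl9 stood at 422 CPM against 51.8 CPM in F13a1 monocytes and 202 CPM in C1q macrophages, and Cxcl10 at 2773 CPM against 1922 and 609 CPM. Ccl12, a ligand of CCR2, was at 559 CPM, above the 117 CPM of F13a1 monocytes and below the 753 CPM of C1q macrophages. The list of 15 chemokines had 11 genes compared, of which 6 were 2-fold above F13a1 monocytes and 3 above C1q macrophages. Of all genes compared, 4.3% and 6.56% were. The list medians were 1.34 and 0.28, against -0.06 and -0.01 over all genes. Cxcl11, a gene of the rule, is among the 6 and the 3, and the limits on the 3-gene sum fix its folds in part.

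Antigen presentation placed the cells between the other populations. H2-Aa was at 3113 CPM against 655 CPM in F13a1 monocytes and 7078 CPM in C1q macrophages, and Cd74, the invariant chain, at 8967 CPM against 2329 and 18844 CPM. Of 8 MHC class II genes compared, 7 were 2-fold above F13a1 monocytes and 4 were 2-fold below C1q macrophages. Of all genes compared, 4.3% were 2-fold above F13a1 monocytes and 2.02% were 2-fold below C1q macrophages. Cd274, the gene of the checkpoint ligand PD-L1, was at 161 CPM against 67.8 and 80.7 CPM. Lyz2 was at 7662 CPM against 32452 CPM in F13a1 monocytes. The 10 genes lowest against both were Gm45030, Dhrs7, Lipa, Selenop, Mt1, Cd302, Hexa, Trf, Ramp1 and Tmem109, among them the lysosomal enzymes Lipa (30.8 CPM against 67.0 and 60.7 CPM) and Hexa (97.0 CPM against 176 and 216 CPM). All 10 were below both populations in every library.

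**Figure D2:**
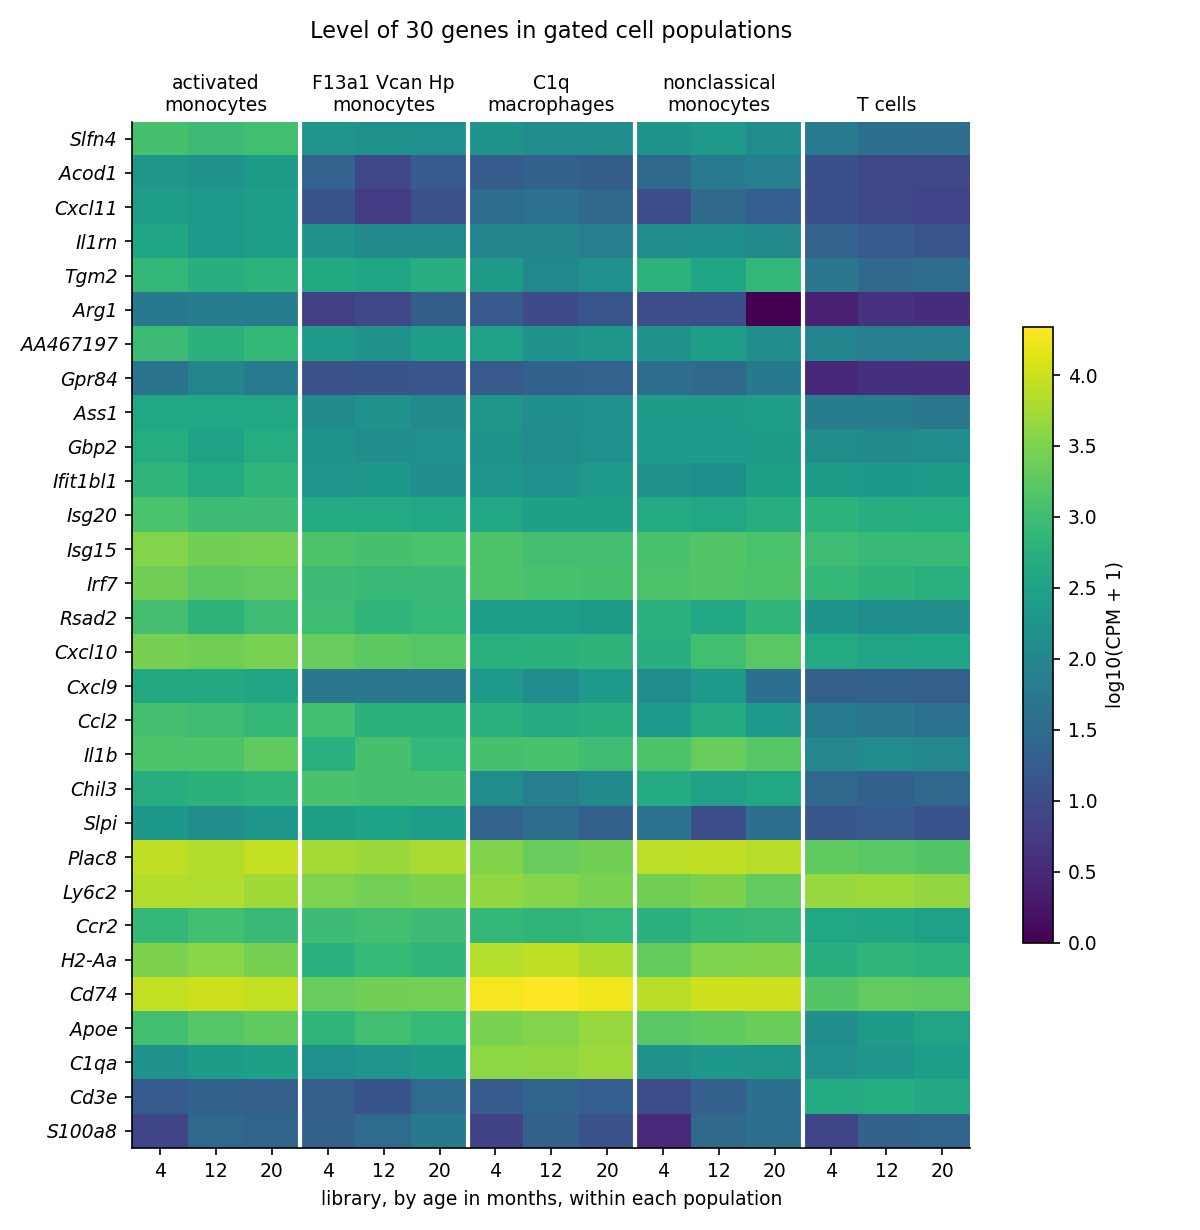
Level of 30 genes, as log10(CPM + 1) on the colour scale, in 5 gated populations (columns, each split into the 4-, 12- and 20-month libraries). Activated monocytes have the brightest Slfn4, Acod1, Cxcl11, Arg1 and AA467197, while H2-Aa and Cd74 lie between the F13a1 monocytes and the C1q macrophages, and C1qa lies at the level of the T cells.

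Levels of Cxcl10, Il1rn and Rsad2 were higher in cells with a higher summed count of the 3 rule genes. The split uses the counts that the rule used, so it is a description. In cells that met all other limits, Cxcl10 stood at 729 CPM with no count of the 3 genes, 2026 CPM with 5 to 9 counts, 3240 CPM with 10 to 19 and 5651 CPM with 20 or more (interval 5414 to 5895 CPM). Il1rn went from 58.7 to 231, 428 and 569 CPM over the same steps, and Rsad2, the antiviral enzyme viperin, from 332 to 807, 1279 and 1796 CPM. H2-Aa went from 5851 to 3764 and 2129 CPM, and was 2799 CPM in the 51 cells with 20 or more. Ly6c2 reached 6104 CPM at 3 to 4 counts and stayed between 6579 and 6770 CPM above that. Median counts per cell were 6210 at sums of 5 to 9, 6285 at 10 to 19 and 7144 at 20 or more, and depth was not adjusted for. The step from 5 to 9 up to 10 to 19 held in each library for Cxcl10, which went from 2027 to 3198 CPM at 4 months, 1946 to 2625 CPM at 12 months and 2091 to 3801 CPM at 20 months.

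**Figure D3:**
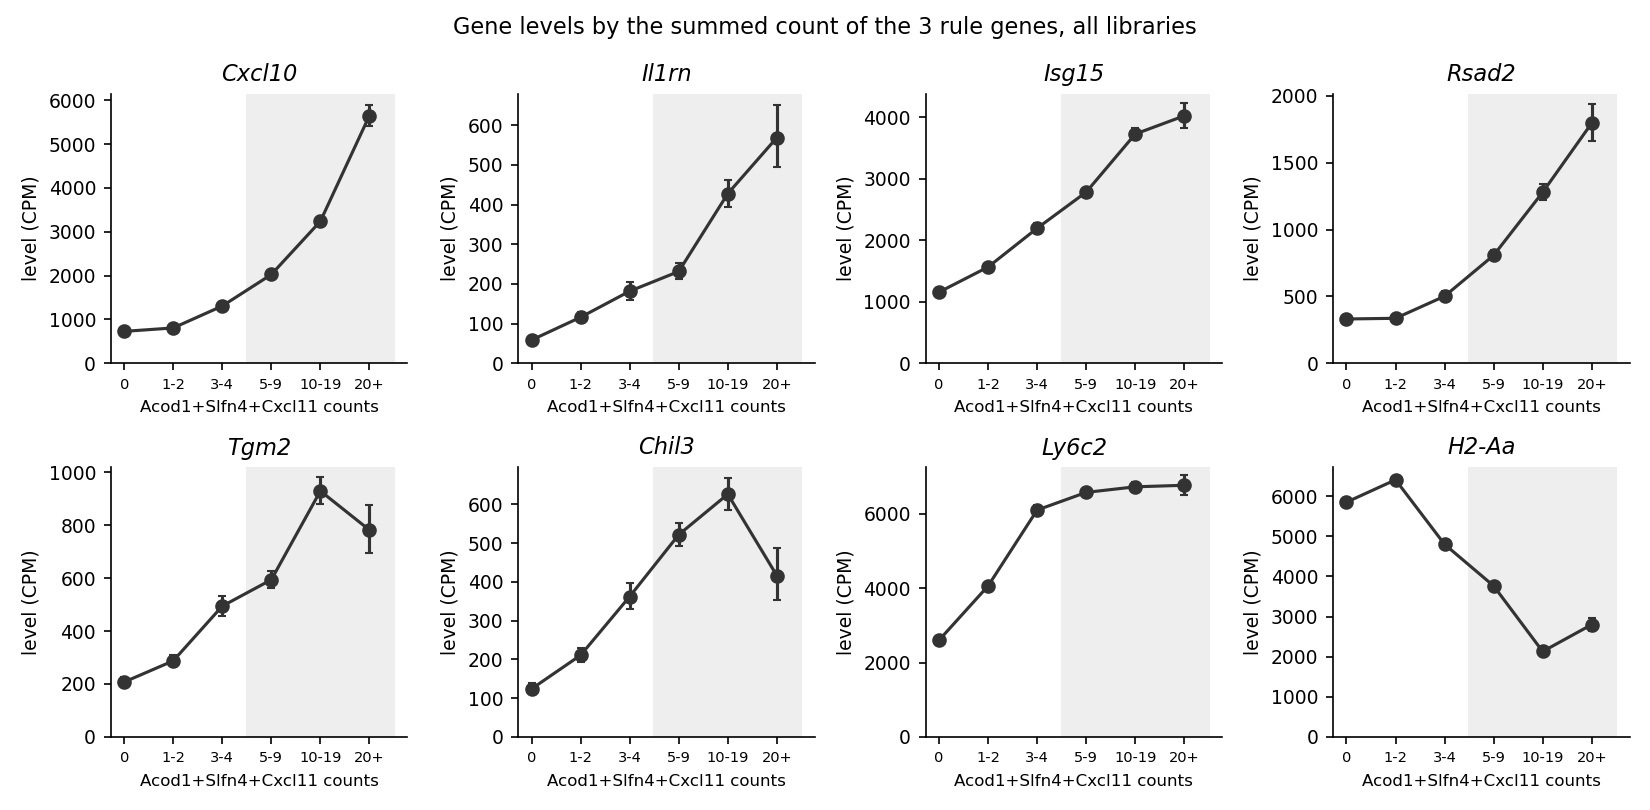
Level in CPM (y axis, linear from 0) of 8 genes by the summed counts of Acod1, Slfn4 and Cxcl11 per cell (x axis), over all 3 libraries. Points are summed levels, error bars 95% Poisson intervals, and the grey area marks cells that meet the rule. Cxcl10 climbs from 729 to 5651 CPM, while H2-Aa drops from 6410 CPM at 1 to 2 counts to 2129 CPM at 10 to 19.

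The cells that held both Acod1 and Cxcl11 also had the highest Cxcl9, Il1rn and Cd40, in a split that again uses counts of the rule. These 161 cells had 1106 CPM of Cxcl9 (1046 to 1170 CPM), against 273 CPM in the 106 cells with Acod1 alone of that pair, 257 CPM in the 131 with Cxcl11 alone and 81.2 CPM in the 244 with neither. Il1rn followed the same order, at 597, 299, 240 and 199 CPM. Cd40, a receptor for T-cell help, was at 309, 117, 183 and 95.5 CPM, Gpr84 at 108, 50.1, 36.1 and 27.3 CPM, and Upp1 at 122, 28.2, 39.5 and 58.4 CPM. Arg1 did not go with Cxcl11, at 75.1 CPM with both, 84.6 CPM with Acod1 alone, 23.7 CPM with Cxcl11 alone and 55.2 CPM with neither. Slfn4 was highest where the others were absent, at 1316 CPM, which the minimum on the sum fixes in part. Median depth was 6622 counts where both were found and 5952.5 where neither was, and presence of a gene moves with depth. At each age Cxcl9 was highest in the cells with both, at 1228, 1330 and 568 CPM.

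By age, activated monocytes held less of the interferon-induced transcripts at 12 months, and at 20 months by less, than at 4 months. Between 12 and 4 months 61 of 3645 genes (1.67%) were at least 2-fold higher and 22 (0.604%) lower, 83 in all (2.28%), and between 20 and 4 months 41 (1.12%) were higher and 22 (0.604%) lower, 63 in all (1.73%). These are genes at 50 CPM or more in at least 1 library, and the median log2 ratio over all of them was -3.13e-05 at 12 months and 0.000857 at 20 months. A gene can thus enter through its highest library alone, and 50 CPM rests on fewer counts at 12 and 20 months. In the wider set, of 3430 genes, 11 (0.321%) were 2-fold higher and 5 (0.146%) lower at 12 months. At 20 months 9 (0.262%) were higher and 14 (0.408%) lower, so the excess of higher genes at 20 months turned. No gene of the type I interferon list passed 2-fold. Of its 30 genes, 23 had a counting interval wholly below no change at 12 months and 14 at 20 months, with 0 above at either age, where 10.3% and 10.2% of all genes had such an interval. The list's median log2 ratio was -0.42 at 12 months and -0.17 at 20 months. In T cells of the same libraries the medians for these genes were -0.28 and -0.29, below 0 at both ages, and their part in the result was not tested. In the wider set of cells the medians were -0.33 and -0.17, with 29 and 21 of 30 intervals below, where 24.6% and 22% of all genes in that set had one.

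Single interferon genes showed the same order of libraries. Isg15 stood at 3449, 2575 and 2757 CPM at 4, 12 and 20 months, a log2 ratio of -0.42 at 12 months (-0.50 to -0.34) and -0.32 at 20 months (-0.39 to -0.25). Irf7, the transcription factor that amplifies the response, was at 2462, 1767 and 2009 CPM, and Ifit3 at 2073, 1470 and 1726 CPM. Rsad2 was at 1151, 673 and 968 CPM, with a log2 ratio of -0.77 (-0.94 to -0.62) at 12 months. The 4-month library was highest for all 4 of these genes and the 12-month library lowest. F13a1 monocytes were also highest at 4 months for all 4, with Isg15 at 1335, 1190 and 1288 CPM and Rsad2 at 996, 693 and 806 CPM. C1q macrophages held 1358, 1123 and 1105 CPM of Isg15, and 261, 270 and 230 CPM of Rsad2. Nonclassical monocytes had most Isg15 at 12 months, at 1243, 1533 and 1304 CPM. The part of these differences shared by all cells of a library was not tested. Ifit1bl1 and Gbp2 were low at 12 months alone, at 723, 456 and 679 CPM and at 487, 318 and 477 CPM. Among the 19 interferon-gamma GTPase and target genes compared, 9 had intervals below and 1 above at 12 months, and 2 and 0 at 20 months, with medians of -0.35 and -0.13. Of all genes 10.3% were below and 11.7% above at 12 months, and 10.2% and 12.4% at 20 months.

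**Figure D4:**
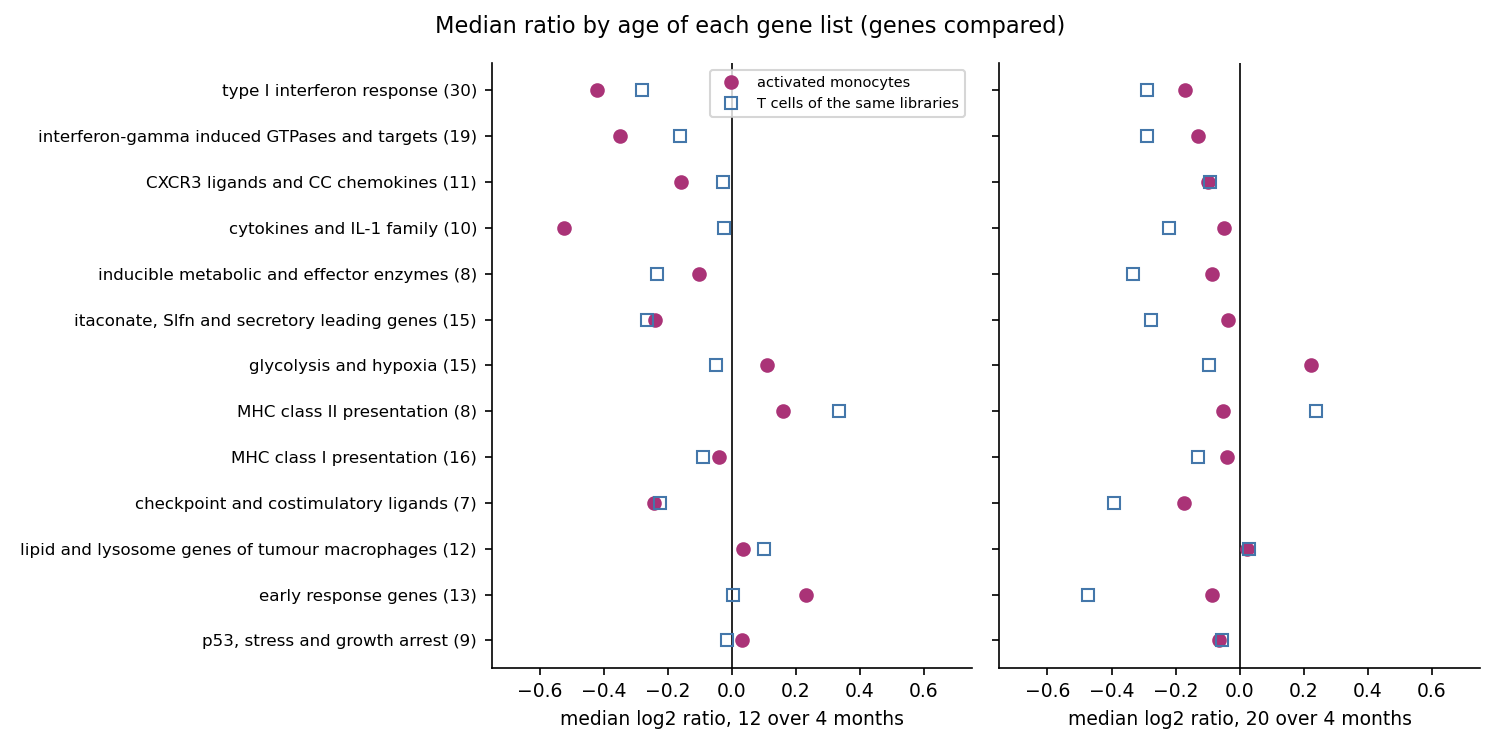
Median log2 ratio of each gene list (x axis) at 12 over 4 months (left) and 20 over 4 months (right), for activated monocytes (filled) and T cells of the same libraries (open), with the number of genes compared in brackets. The type I interferon median is -0.42 at 12 months in activated monocytes, and glycolysis and hypoxia genes are at 0.22 at 20 months against -0.09 in T cells.

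Of the cytokines, Il1rn was highest at 4 months, at 367, 219 and 256 CPM, with log2 ratios of -0.74 (-1.03 to -0.47) and -0.52 (-0.75 to -0.29). Other cells also had most Il1rn at 4 months, with 170, 120 and 115 CPM in F13a1 monocytes and 91.5, 89.6 and 70.3 CPM in C1q macrophages. T cells held 21.8, 16.4 and 13.2 CPM, and nonclassical monocytes 141, 142 and 111 CPM. The part of a difference shared by all cells of a library was not tested. Il1b, whose product Il1rn blocks, went the other way, at 1332, 1420 and 1898 CPM, 0.51 higher at 20 months (0.42 to 0.60). In the wider set Il1rn was at 315, 197 and 233 CPM and Il1b at 1325, 1740 and 1671 CPM, so that Il1b was lowest at 4 months in both sets. F13a1 monocytes also had least Il1b at 4 months, at 574, 1182 and 755 CPM. C1q macrophages had least at 20 months, at 1177, 1232 and 1034 CPM. Il27, a subunit of an interleukin of activated myeloid cells, was at 54.7, 15.2 and 54.3 CPM, or 161, 8 and 39 counts. Its 12-month log2 ratio of -1.84 (-3.08 to -0.83) was -0.51 in the wider set. Il15, which sustains NK and CD8 T cells, was at 146, 76.2 and 93.3 CPM, and at 123, 82.3 and 97.9 CPM in the wider set. Of the 10 genes of the cytokine list compared, 6 had intervals below at 12 months and 3 at 20 months, where 10.3% and 10.2% of all genes had one.

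Of 11 chemokines compared, 2 had intervals above and 5 below at 12 months, and 3 and 4 at 20 months. The shares of all genes were 11.7% above and 10.3% below at 12 months, and 12.4% and 10.2% at 20 months. Cxcl10 was at 2796, 2507 and 2874 CPM, Cxcl9 at 436, 425 and 361 CPM and Cxcl11 at 264, 213 and 260 CPM, and the largest of these log2 ratios was -0.30 for Cxcl11 at 12 months (-0.60 to -0.02). Ccl2, the main ligand of CCR2, was at 1143, 974 and 779 CPM, with -0.55 at 20 months (-0.69 to -0.42). F13a1 monocytes held 1081, 617 and 606 CPM of Ccl2, C1q macrophages 588, 461 and 524 CPM, and nonclassical monocytes 211, 457 and 213 CPM. Ccl4 was at 859, 757 and 569 CPM, under the T-cell levels of 1117, 1053 and 986 CPM. Ccl7, another ligand of CCR2, was at 222, 202 and 146 CPM, a log2 ratio of -0.60 at 20 months. Ccl7 in the wider set was at 197, 141 and 89.6 CPM, and its 20-month ratio of -1.14 (-1.32 to -0.97) passed 2-fold. Cxcl9 at 12 months turned there, at 424, 503 and 356 CPM with a ratio of 0.25 (0.17 to 0.32).

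The other given markers did not share 1 order. Slfn4 was at 1196, 953 and 1060 CPM and Acod1 at 198, 162 and 231 CPM, and both Acod1 intervals, -0.63 to 0.04 and -0.03 to 0.48, held no change. Neither Acod1 interval of the wider set did, with ratios of -0.17 (-0.30 to -0.04) and 0.32 (0.19 to 0.44). Tgm2 was at 783, 522 and 645 CPM, with log2 ratios of -0.58 (-0.77 to -0.40) and -0.28 (-0.43 to -0.13). C1q macrophages held 228, 106 and 159 CPM of Tgm2, in the same order, and F13a1 monocytes 438, 364 and 498 CPM. Slpi was at 206, 137 and 201 CPM by the rule, and in the wider set at 222, 128 and 103 CPM, where its 20-month ratio of -1.10 passed 2-fold. Chil3 was higher at each later age by the rule, at 497, 610 and 711 CPM, but in the wider set it was at 431, 376 and 526 CPM, so its place at 12 months turned with the T and NK limits. Among MHC class II genes 4 of 8 had intervals above at 12 months, where 11.7% of all genes had one. At 20 months 0 were above and 3 below, where 12.4% and 10.2% of all genes were. H2-Aa was at 3086, 3667 and 2821 CPM. The wider set had 6 above and 1 below at 12 months, and at 20 months 5 were above and 2 below, so the balance at 20 months turned. Of all genes in that set, 22.8% were above and 24.6% below at 12 months, and 19.3% and 22% at 20 months. T cells had medians of 0.34 and 0.24 for these genes, and their part in the result was not tested. Of the enzymes, Ass1 held at 387, 393 and 396 CPM and Arg1 at 55.4, 64.8 and 65.5 CPM, with intervals that held no change. Arg1 in the wider set was at 44.3, 40.3 and 56.9 CPM, lower at 12 months and, with a ratio of 0.36 (0.11 to 0.61), higher at 20 months. Its log2 ratios depended on few cells. Without the 10 cells with most Arg1 in each library, a larger share of the cells at 12 and 20 months, they were -1.91 and -2.45. With no T or NK count allowed they were -0.77 and -1.90.

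**Figure D5:**
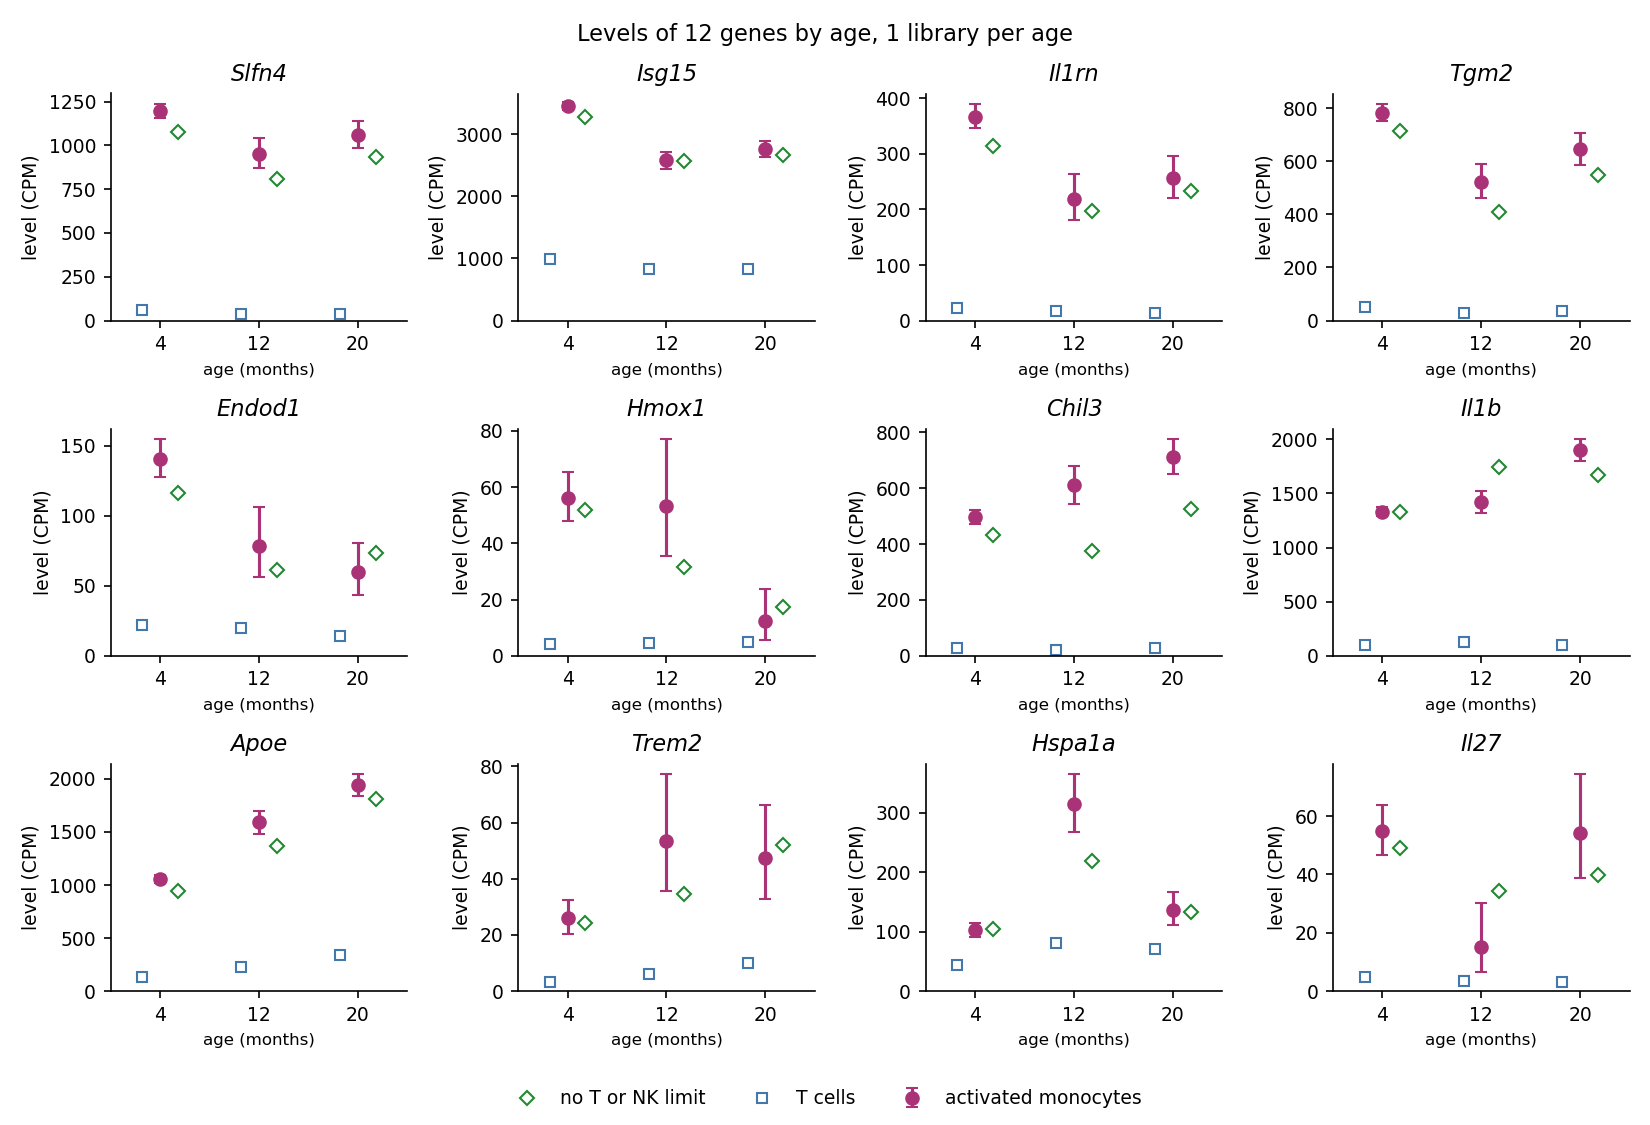
Level in CPM (y axis, linear from 0) of 12 genes by age (x axis, months), with 1 library at each age. Filled points with 95% Poisson intervals are activated monocytes, diamonds the wider set without T and NK limits and squares T cells. Il1rn, Tgm2 and Isg15 are highest at 4 months in both sets, Apoe is higher at each later age, from 1055 to 1941 CPM, and Chil3 and Il27 at 12 months differ between the sets.

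Apoe and Trem2, genes of lipid-handling macrophages, were higher in the older libraries, where the summed macrophage markers were also higher, at 1899, 2522 and 2962 CPM in activated monocytes and 549, 740 and 1026 CPM in T cells. Their part in the result was not tested. Apoe, the lipid carrier of macrophages, stood at 1055, 1590 and 1941 CPM, with log2 ratios of 0.59 (0.48 to 0.70) and 0.88 (0.79 to 0.97). T cells of the same libraries held 132, 228 and 338 CPM of Apoe, in the same order. C1q macrophages held 2895, 3452 and 4769 CPM of Apoe, nonclassical monocytes 1698, 1878 and 2331 CPM, and F13a1 monocytes 699, 1057 and 822 CPM. Trem2, a lipid-sensing receptor of tumour macrophages, was at 25.8, 53.4 and 47.4 CPM, or 76, 28 and 34 counts, with log2 ratios of 1.05 (0.37 to 1.69) and 0.87 (0.25 to 1.48). By the rule Trem2 passed 50 CPM in the 12-month library alone. C1q macrophages held 65.3, 86.4 and 135 CPM of Trem2, F13a1 monocytes 35.8, 44.3 and 62.8 CPM, and nonclassical monocytes 24.2, 0 and 27.7 CPM. Trem2 in the wider set was at 24.3, 34.4 and 52.1 CPM, and leaving out the 10 cells with most Trem2 in each library left log2 ratios of -0.03 and 0.02. Trem1, which amplifies inflammatory signals in monocytes and neutrophils, was at 28.2, 30.5 and 30.7 CPM, and its intervals held no change. Of the 17 lipid and lysosome genes 12 were compared, with 3 intervals above and 3 below at 12 months and 5 above and 3 below at 20 months. Their medians were 0.04 and 0.02, with genes going both ways. Of all genes 11.7% were above and 10.3% below at 12 months, and 12.4% and 10.2% at 20 months.

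Glycolysis and hypoxia genes were slightly higher at 20 months. Of 15 compared, 7 had intervals above and 1 below, with a median log2 ratio of 0.22 against -0.09 for the same genes in T cells, and 12.4% of all genes had an interval above. The list's wider-set median at 20 months was 0.10. The glycolytic enzyme Gapdh was at 158, 248 and 240 CPM, beside 147, 209 and 218 CPM in T cells. Pgk1, a later enzyme of the pathway, was at 214, 292 and 266 CPM against 158, 171 and 182 CPM in T cells. Slc16a3, a lactate exporter, was at 96.9, 72.4 and 131 CPM, and Hk2, hexokinase, at 279, 212 and 219 CPM. Hk2 in the wider set was at 230, 222 and 232 CPM, with both intervals holding no change, and Pgk1 at 12 months held no change either, at -0.03 (-0.15 to 0.08). Vegfa, the angiogenic factor, was the only gene of the list past 2-fold, at 17.3, 19.1 and 51.6 CPM or 51, 10 and 37 counts (log2 ratio 1.57, 0.92 to 2.21, at 20 months). Vegfa passed 50 CPM in the 20-month library alone, and its ratio was 0.80 in the wider set.

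Hspa1a and Hspa1b, which encode the inducible Hsp70 chaperone, were higher at 12 months. Hspa1a was at 103, 315 and 137 CPM, with a log2 ratio of 1.61 (1.33 to 1.89) at 12 months, and was found in 30.4%, 55.1% and 40.7% of activated monocytes. Hspa1b was at 26.5, 118 and 58.5 CPM, with ratios of 2.16 (1.65 to 2.66) and 1.14 (0.56 to 1.70). They are near-identical neighbours, so their counts may be split between them. Hspa5, the Hsp70 chaperone of the endoplasmic reticulum, was lower at the later ages, at 696, 539 and 489 CPM. T cells moved the same way, with Hspa1a at 43.6, 81.2 and 71.7 CPM in 15.3%, 29.1% and 25.1% of cells. In the wider set the 12-month ratios were 1.07 and 1.16.

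Hmox1, which degrades heme, and Endod1 were more than 2-fold lower at 20 than at 4 months. Hmox1 stood at 56.1, 53.4 and 12.5 CPM, or 165, 28 and 9 counts, a log2 ratio of -2.16 (-3.32 to -1.20) at 20 months and -1.59 in the wider set, although 10 cells held 68.5% of the 4-month counts. Endod1 was at 141, 78.1 and 59.9 CPM, with -0.85 (-1.35 to -0.38) and -1.23 (-1.72 to -0.78), and -0.93 and -0.66 in the wider set. Cd72, a receptor of B cells and macrophages, was at 516, 372 and 298 CPM, with a log2 ratio of -0.79 at 20 months and -0.46 in the wider set. Hes1, a Notch target, was at 245, 244 and 149 CPM, and at 193, 159 and 162 CPM in the wider set. Senp2, Prr5l, Hrh2, Pilrb1 and Stx12 had smaller ratios, from -0.74 to -0.65 at 20 months. Wider-set ratios of these genes were smaller, from -0.48 for Hrh2 to -0.19 for Prr5l, and the intervals of Prr5l and Stx12 held no change. Nr4a2, an early response receptor, was highest at 20 months, at 38.4, 45.7 and 105 CPM with a ratio of 1.44 (1.00 to 1.88), where T cells had their lowest level, at 122, 107 and 83.0 CPM. Its ratio was 0.43 in the wider set. At 12 months Itgax, the integrin CD11c, was lowest at 108, 51.5 and 106 CPM, as were Ptgs2, Slc25a22 and Rbm6, with log2 ratios from -1.21 to -1.03. None of these 4 passed 2-fold in the wider set, where the ratios were -0.35 for Itgax, -0.21 for Ptgs2, -0.57 for Slc25a22 and -0.17 for Rbm6.

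Many of the highest ratios by age rested on counts in a lone cell. Among the genes highest at 20 over 4 months, Cap2 reached a log2 ratio of 6.20 with 35 of its 36 counts at 20 months in 1 cell, and Tln2 5.36 with 48 of 50 in 1 cell. Txlnb, Tspan17, Col25a1, Gpr158, Gpc5, Arhgap5 and 1700016L21Rik had likewise between 29 and 75 counts in their highest cell. Among the genes highest at 12 months, Gm14661, Rfx2, Rbm20 and Klf12 had 24, 37, 31 and 40 counts in their highest cell. Ccl17, a chemokine of dendritic cells, had 33 of 55 in 1 cell, and its 12-month ratio of 4.81 was 0.45 in the wider set. At the other end, Nrxn3 was at 65.3, 9.53 and 8.36 CPM, with 88 of 192 counts at 4 months in 1 cell. Without the 10 cells with most Nrxn3 in each library its log2 ratios were -0.65 at 12 months and -1.18 at 20 months, from -2.78 and -2.97, and in the wider set they were -2.32 and -2.05. NK markers also moved with age, at a summed 479, 412 and 252 CPM against 2601, 2127 and 1615 CPM in T cells, and T-cell markers stood at 605, 896 and 669 CPM. Red-cell genes were at 51.7, 7.62 and 16.7 CPM. Their part in the ratios by age was not tested.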

How the data were processed

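Cells were sequenced with PIP-seq from 1 library per age. The authors deposited 1 matrix of whole-number counts (genes by cells) with every library; STAR 2.7.10a and GRCm38 are named in the submitters' processing notes. Whether molecules or reads were counted, the annotation and the strand setting are not given in the sources used here, so intervals cover counting error only and treat counts as independent. Of 55401 identifiers, 54349 matched GENCODE M21, from which positions were taken, and 107 gene symbols belonged to more than 1 identifier.

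All deposited cells were used (43730, with at least 3555 counts each) and none was removed as a doublet, although Scrublet scores (scanpy 1.11.5) served an alternative. Counts were summed over the chosen cells of a library and divided by their total to give counts per 1000000 (CPM). Genes at 50 CPM or more in at least 1 library were compared by age, and 2-fold was the size named. Intervals at 95% are exact Poisson for levels, Clopper-Pearson for shares, Newcombe for differences of shares and exact conditional binomial for log2 ratios. Ratios to other populations used log2(CPM + 1). The scripts were tested on simulated data, with python 3.11.15, numpy 2.4.6, scipy 1.17.1, pandas 2.3.3 and matplotlib 3.10.9.

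The members and gene lists were chosen with earlier results of these data known. Named genes were the given markers, the rule's genes, Trem1 and Trem2, and the 20 highest and 10 lowest against both other myeloid populations. By age they were the 10 highest and 10 lowest at 20 months with the 12-month level between, and the 5 highest and 5 lowest at 12 months, where levels and ratios stood apart from T cells. Up to 4 of the most abundant genes of each list, and those past 2-fold, were added. Others (the markers Ly6c2, Lyz2, Ccr2, Mitf, S100a8, S100a9, Trac and Trbc2, and Nos2, Gapdh, Pgk1, Slc16a3, Hk2, Il15, Cd274, Rsad2, Cxcl9, Ccl7 and Ccl12) were chosen after their values were seen, and 1 gene that the rule names is not reported here. Alternatives changed the limits of the rule, the filter, the scaling, the depth and the cells included, and their effect is given at the end.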

Additional observations from a re-analysis of the deposited data

How the results depend on the processing

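No paired analysis was possible because each age had 1 library, and no replicate could be left out. The share was lower at 12 and at 20 than at 4 months under every setting run. In percentage points the differences were -3.22 and -2.93 with a minimum of 3 counts, -1.76 and -1.56 with a minimum of 8, -0.759 and -0.657 with no T or NK count allowed, and -3.26 and -2.98 with cells thinned to 3500 counts. They were -6.86 and -10.6 among cells passing the myeloid gate, and -2.17 at 12 months with C1q counts under 5. Chosen after seeing the data, T and NK limits of 3 gave -4.83 and -4.52, and no limit gave -4.32 and -4.71.

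Counts of genes past 2-fold moved much more, from 83 at 12 months and 63 at 20 months. They were 1036 and 821 with a filter of 10 CPM, 2530 and 2273 with no filter beyond 1 count in each library, 204 and 123 with a minimum of 8 counts, 661 and 439 with no T or NK count allowed, and 145 and 115 with the T-cell level subtracted. With a minimum of 3 counts the 12-month number was 50. Limits of 3 gave 22 and 28, and no limit 16 and 23. Genes 2-fold above both other myeloid populations numbered 29, and 45 with a minimum of 8 counts, 56 in the 12-month library alone and 55 in the 20-month library alone.

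Of 2871 values for single genes, 2640 kept their direction. The filter settings leave the ratio of a single gene unchanged, so their values kept it by construction. Among the values that changed sign, 11 were of genes at 2-fold or more in the main setting. Without the 10 cells with most counts of the gene in each library, which are a larger share of the 12-month and 20-month cells, the log2 ratio was -0.56 at 12 months and -2.65 at 20 months for Gpc5, -0.16 at 12 months for Gpr84, -0.035 at 12 months for Trem2 and -0.26 at 20 months for Arhgap5. With no T or NK count allowed it was -0.53 for Gpr84 at 12 months and -1.02 for Arhgap5 at 20 months. Gpr158 at 20 months was -2.69 with a minimum of 8 counts. Rbm20 at 20 months was -0.078 with a minimum of 3 counts, -1.37 with T and NK limits of 3 and -0.95 with no limit. The cause was not tested. Of 328 list medians, 282 kept their direction and the others changed sign. None could count as reversed, because no list median reached 2-fold in the main setting. Depth limits the 12-month library most, where 1 count was worth about 1.91 CPM.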
